A study of Mus musculus with 6 samples.

Results

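The Rab genes encode the small GTPases of vesicle traffic. In the mouse hippocampus they were compared between RNA pulled down with GFP-tagged ribosomes, to enrich that of microglia, and RNA of the whole tissue homogenate. Members were taken by name and type, as the protein-coding genes of the deposited table whose symbol is Rab followed by a number and at most a letter and a further number. This gave 54 genes of the 15388 in the table, and all 54 passed the filter on low reads. The rule used no measured value.

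Rab proteins are molecular switches that cycle between a GTP-bound form on membranes and a GDP-bound form held in the cytosol by GDP dissociation inhibitors. Guanine nucleotide exchange factors (GEFs) load the GTP, GTPase-activating proteins (GAPs) end the active state, and effectors that bind the active form carry out tethering, transport and fusion of vesicles. In neurons the family is best known for synaptic vesicle release, and in macrophages and microglia for the ripening of phagosomes and lysosomes.

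The libraries came from 3 mice numbered 201, 207 and 208, all Cx3cr1-Cre/Ert2+; NuTRAP+ and all given tamoxifen. They carried a heterozygous tamoxifen-inducible Cre at Cx3cr1, a gene of microglia, border macrophages and some blood monocytes, and 1 floxed copy of the NuTRAP reporter, which after recombination puts GFP on ribosomes. The mice were young adults of either sex per the study's methods, and sex per animal was not given in the labels. Each animal gave an Input library from the cleared homogenate and a Positive library from ribosomes pulled down with anti-GFP antibody (translating ribosome affinity purification, TRAP), so that 3 Input and 3 Positive libraries were compared. Both fractions of an animal share its alleles and its tamoxifen treatment.

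Input libraries held 14879734 to 16488460 reads and Positive libraries 15790210 to 17757918. All 10 microglial markers were higher in Positive, with a median log2 fold change of 4.66, among them Csf1r, the receptor for microglial growth factors, at 4.63. Markers of other cells moved with the fractions too. All 6 border macrophage markers (Mrc1 at 4.19 and F13a1 at 4.48) and all 8 endothelial markers (Flt1 at 2.00 and Vwf at 1.94) were higher, with summed scaled reads of 2539 to 5565 against 184 to 236 and of 4495 to 9007 against 1679 to 2061. All 8 oligodendrocyte markers were lower (Mbp at -1.74). Of 10 neuronal markers 3 were higher (Camk2a at 0.30, and Snap25 at 0.21 did not pass), with sums of 169261 to 202965 in Positive against 150215 to 170367 in Input, so that neuronal transcripts were abundant in both fractions. Astrocyte markers gave 1 higher (Slc1a2 at 0.29) and 3 lower of 8 (Aldoc at -0.16 did not pass), and mural markers 1 lower of 6 (neither Rgs5 at 0.42 nor Vtn at -0.29 passed). With the animal as a block 4 more of these markers passed, the astrocyte genes Aqp4 (-0.31, adjusted p = 0.0165) and Aldh1l1 (-0.41, adjusted p = 0.0243), both lower, and the mural gene Rgs5 (0.38, adjusted p = 0.0424) and the neuronal gene Nefl (0.22, adjusted p = 0.0479), both higher. Of 6 monocyte and neutrophil genes 1 was tested, Ly6c2, which was higher at 1.61. It had 12.2, 7.49 and 2.09 scaled reads in Input and 24.6, 22.2 and 20.7 in Positive. It thus passed the filter on reads only through the Positive libraries, and its direction follows in part from the filter. Some of the border macrophage markers also passed the filter only through Positive. The calls for Camk2a and Slc1a2 were lost under total count scaling and without any 1 of the Input libraries. That of Camk2a was also lost with genes of at least 100 scaled reads (adjusted p = 0.061) and without Positive 208. Over these fits its adjusted p was 0.0577 to 0.219. The call for Slc1a2 was also lost without Positive 207 (adjusted p over these fits from 0.0826 to 0.151). The part of these other cells in the results below was not tested. Both fractions of an animal came from the same homogenate, so these values compare the RNA recovered and do not count cells. Bulk libraries also do not show which cells the RNA came from.

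Of the 54 Rab genes, 26 differed between fractions at an adjusted p under 0.05 in edgeR's quasi-likelihood test, a share of 48.1% against 46.0% of all genes tested. Of these 15 were higher in Positive, 27.8% of the family against 23.9% of all genes, and 11 were lower, 20.4% against 22.0%. The median log2 fold change (Positive over Input) was 0.00031 in the family and -0.0128 over all 15343 genes tested. The share of Rab genes that differed was thus near that of all genes. Under scaling by total count the split was 12 higher and 14 lower, so that 46.2% of the family's calls were higher against 57.7% here. With the animal as a block 27 members differed, against 49.3% of all genes. Without the Input library of animal 207 the lower calls numbered 7, and without the Positive library of animal 208 they numbered 15.

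What set members apart from each other was size. Genes that were higher at an adjusted p under 0.05 by at least 2-fold numbered 5, Rab32, Rab39, Rab20, Rab27a and Rab7b, against 8.29% of all genes tested, and all 5 were higher in each of the 3 animals. Of these, Rab39 and Rab7b passed the filter on reads only through the Positive libraries, where they were high. Only Rab32 was over 5-fold higher, 1 of 54, where 3.75% of all genes were. No member was lower by that much, where 4.47% of all genes were, and the largest decrease was that of Rab13 at -0.65. The reads of the fractions did not overlap in 32 members, 18 higher and 14 lower, where 56.4% of all genes tested did not overlap (29.0% higher and 27.5% lower). These 32 include all 26 that passed the test. The family as a whole took 0.597% to 0.601% of the reads in Input and 0.557% to 0.632% in Positive.

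**Figure D1:**
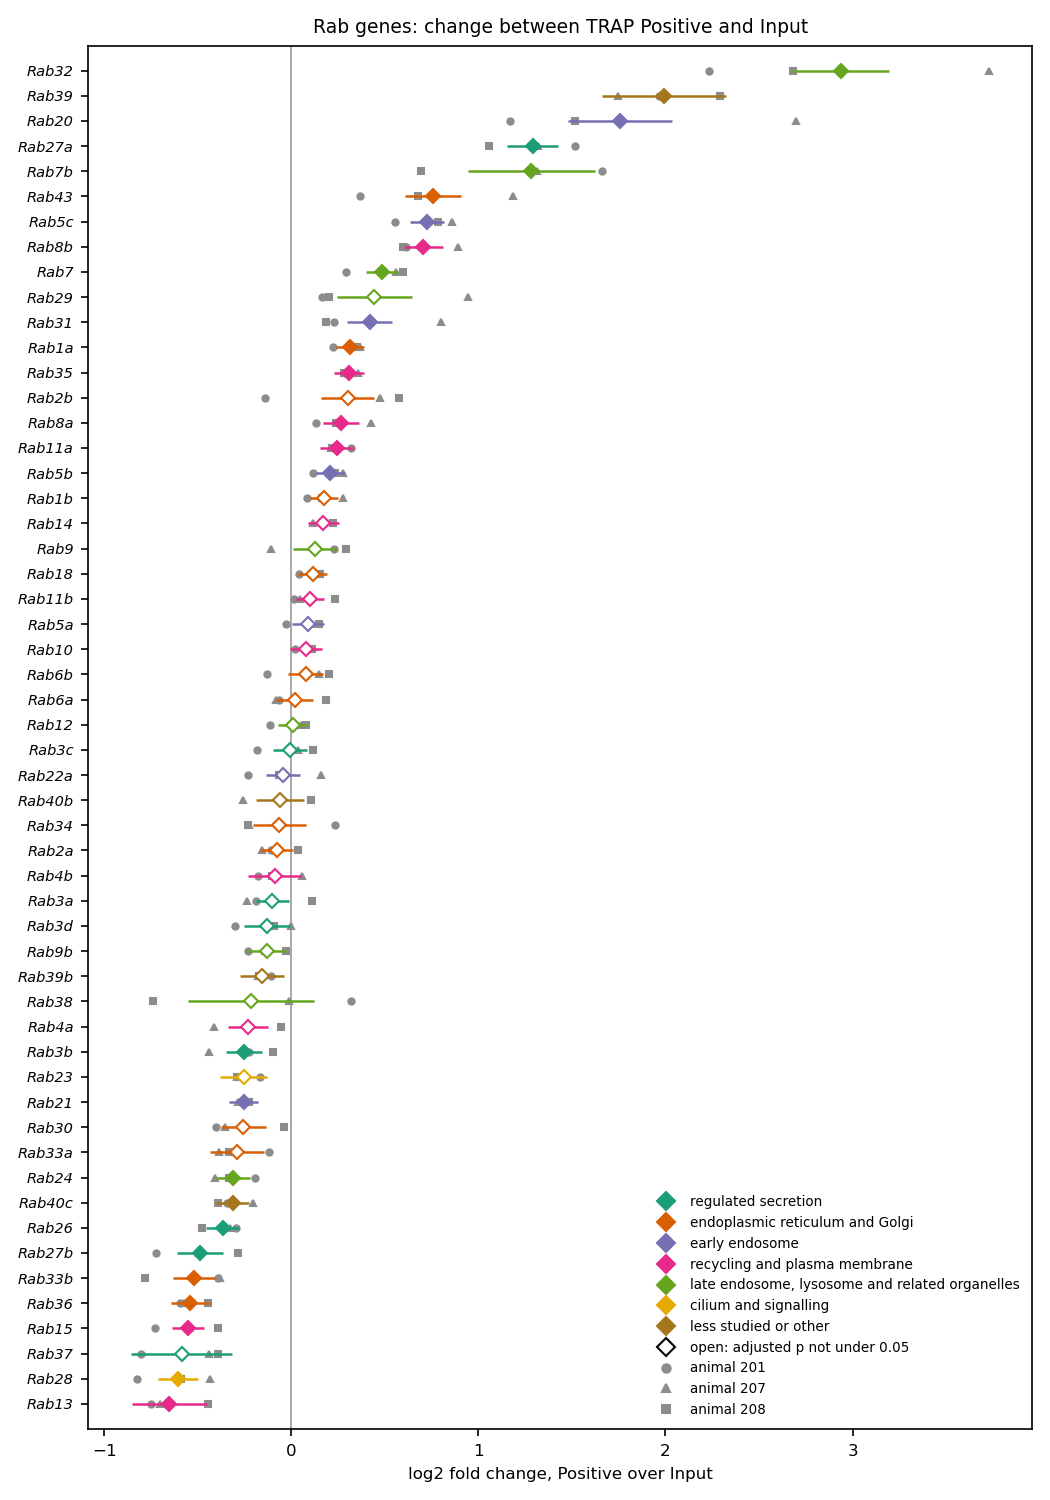
Log2 fold change of each of the 54 Rab genes (Positive over Input, x axis), with diamonds for the fitted value, bars for its SE, colours for the role, open diamonds for genes that did not pass the test and grey marks for the 3 animals. Rab32, Rab39, Rab20, Rab27a and Rab7b lie at 1.28 or above, and no gene lies below -0.65.

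The bases before the gene start are shown for Rab32, Rab20, Rab39 and Rab27a, which are among the members with the largest differences. These were taken as members higher by at least 2-fold, so that their shared direction follows from the choice. The letters searched, on either strand and in the 250 bases before each start, were GAGGAAG, a core bound by PU.1, a transcription factor of microglia and other macrophages, and CACGTG, the E-box bound by the lysosomal regulators of the TFEB and MITF family. An end base may be shared by both. Windows came from RefSeq on GRCm38.p6, the build named mm10 elsewhere, and 44 members had 56 windows. Rab7b had none. Only bases outside the deposited gene are printed, 5′ to 3′ on the gene's strand, with GAGGAAG or its reverse complement in capitals. They are chr10:10558266-10558457 (minus strand) for Rab32, chr8:11478711-11478890 (minus) for Rab20, chr9:53706233-53706482 (minus) for Rab39 and chr9:73044560-73044809 (plus) for Rab27a.
Rab32: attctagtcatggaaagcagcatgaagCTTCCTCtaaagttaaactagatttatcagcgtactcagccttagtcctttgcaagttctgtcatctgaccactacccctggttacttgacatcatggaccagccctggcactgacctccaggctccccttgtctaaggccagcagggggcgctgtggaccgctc
Rab20: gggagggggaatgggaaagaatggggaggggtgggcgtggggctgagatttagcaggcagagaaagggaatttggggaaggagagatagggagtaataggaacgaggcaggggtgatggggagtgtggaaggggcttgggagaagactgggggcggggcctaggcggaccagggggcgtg
Rab39: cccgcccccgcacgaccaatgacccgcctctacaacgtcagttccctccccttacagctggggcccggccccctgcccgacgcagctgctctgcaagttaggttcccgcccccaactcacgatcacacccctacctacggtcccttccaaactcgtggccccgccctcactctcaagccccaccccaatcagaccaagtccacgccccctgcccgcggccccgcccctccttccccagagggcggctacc
Rab27a: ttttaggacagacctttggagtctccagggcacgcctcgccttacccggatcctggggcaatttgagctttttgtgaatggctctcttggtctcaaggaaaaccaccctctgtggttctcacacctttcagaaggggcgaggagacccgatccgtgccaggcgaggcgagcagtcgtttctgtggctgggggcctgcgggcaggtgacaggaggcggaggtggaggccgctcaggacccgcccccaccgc
The Rab32 window held the GAGGAAG letters and only 5 CG pairs, where the median over the windows of the family was 16. The window of Rab39 held 18 CG pairs and neither motif. CACGTG stood in the window of Rab20, in its last 70 bases, which lie inside the deposited gene, and in a second window of Rab27a that lies wholly inside the gene. Across the family GAGGAAG was in 8.93% of the windows against 10.6% of all 32851 windows, and CACGTG in 8.93% against 6.02%. Besides Rab32, GAGGAAG stood in windows of Rab33b, which was lower, and of Rab6a, Rab2b and Rab12, which did not pass. By call GAGGAAG was in 1 of 19 windows of members that were higher, 1 of 12 of those lower and 3 of 25 of the others. CACGTG also stood in windows of Rab21, which was lower, and of Rab23 and Rab5a, which did not pass. By call CACGTG was in 2 of 19 windows of members that were higher, 1 of 12 of those lower and 2 of 25 of the others. The letters are a description of the sequence and not of a bound site.

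Members that act at late endosomes, lysosomes and related organelles held the largest difference. Rab32 (chromosome 10, 10545002 to 10558265, minus strand, mm10) directs cargo to lysosome-related organelles such as melanosomes. It had 37.6, 22.5 and 31.4 scaled reads in the Input libraries of animals 201, 207 and 208 and 181, 310.4 and 207 in their Positive libraries. Every Positive library was above every Input library, and animal 207 showed the largest step. The log2 fold change was 2.94 ± 0.26 (SE), a 7.65-fold higher level, with an adjusted p of 1.19e-06. Per kilobase of transcript its level went from 13.03 ± 3.25 to 99.5 ± 29.3 scaled reads (SD, n = 3), and from place 51 to place 41 among the 54 genes.

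The closest paralogs of Rab32 did not share its change. Rab38 (chromosome 7, 88430273 to 88491572, plus strand), which acts beside Rab32 in melanosome formation, had 16.3, 28.1 and 38.7 scaled reads in Input and 20.5, 27.8 and 22.8 in Positive. Its fractions overlapped, and the log2 fold change of -0.22 ± 0.34 did not pass (adjusted p = 0.63). Rab29 (chromosome 1, 131867224 to 131872887, plus strand), a Golgi and lysosome Rab that recruits the kinase Lrrk2, had 92.5, 69.3 and 89.9 in Input and 104, 134 and 103 in Positive. Its fractions did not overlap, but the log2 fold change of 0.44 ± 0.20 did not pass (adjusted p = 0.0861). Of the summed level of the 3 paralogs per kilobase, Rab32 made up 14.8% ± 2.78 in Input and 51.3% ± 3.44 in Positive (SD, n = 3), and Rab29 65.2% ± 4.67 and 40.8% ± 3.03.

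Rab7 and Rab7b were both higher. Rab7 (chromosome 6, 87999106 to 88045270, minus strand) is the general Rab of late endosomes and drives their fusion with lysosomes. It had 4283, 3738 and 4029.8 scaled reads in Input and 5249, 5508 and 6093 in Positive, without overlap. The log2 fold change was 0.48 ± 0.09 (adjusted p = 0.000549), and Rab7 was the highest member per kilobase after Rab3a and Rab6b in Positive, at 2152 ± 166 against 1539 ± 104 in Input. Rab7b (chromosome 1, 131688695 to 131715439, plus strand), which serves traffic from late endosomes to the trans-Golgi network, was the lowest member per kilobase in Input, at 4.27 ± 1.31 scaled reads. Its libraries had 14.2, 26.2 and 18.8 scaled reads in Input and 47.2, 66.7 and 31.0 in Positive. Although its reads were few, the fractions did not overlap, and the log2 fold change was 1.28 ± 0.34 (adjusted p = 0.00837). Of the windows of 42 bases along Rab7, 12.6% occur in another gene, mostly in the pseudogene Rab7-ps1.

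In the same group Rab24, a Rab linked to autophagy, was lower at -0.31 ± 0.09 (adjusted p = 0.0134), but not without the Input library of animal 207 (adjusted p = 0.0701). Rab9 and Rab9b, which return cargo from late endosomes to the trans-Golgi network, had 0.13 and -0.13, and Rab12 had 0.01. None of these passed, so that 3 of 9 members were higher (33.3%, against 23.9% of all genes) and 1 lower (11.1%, against 22.0%).

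**Figure D2:**
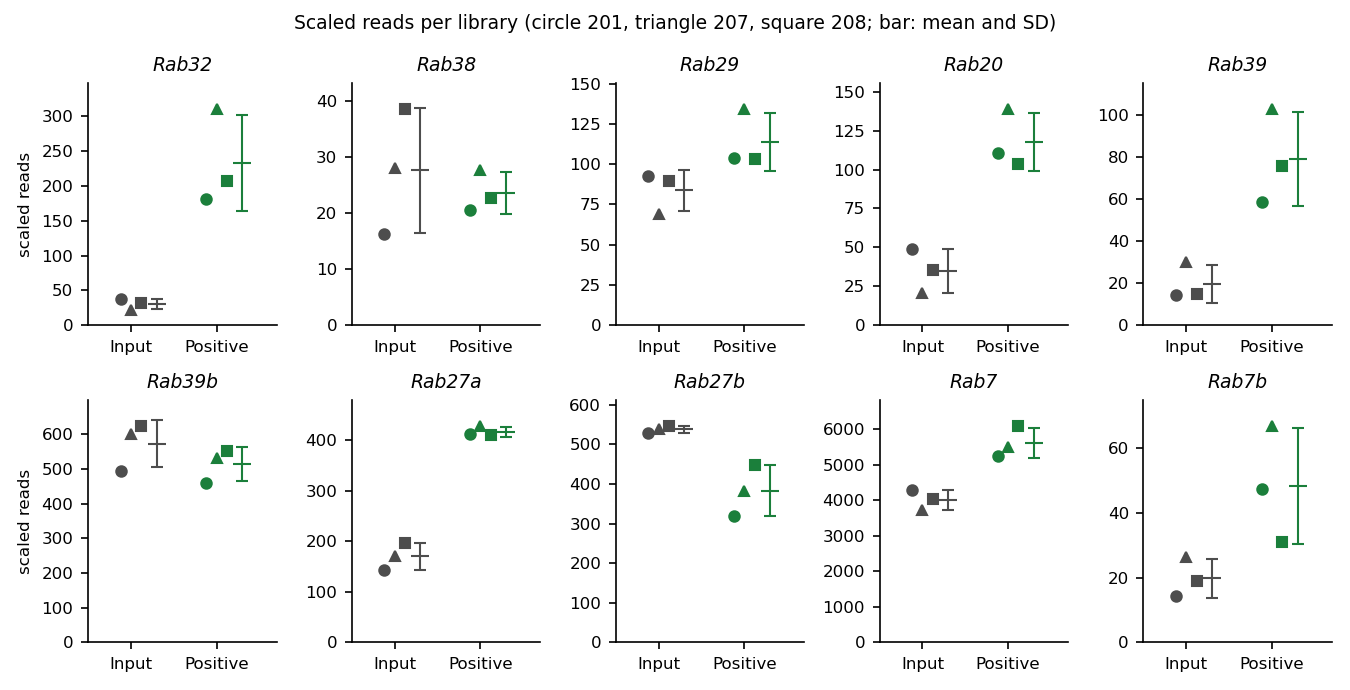
Scaled reads (y axis, linear from 0 and separate for each gene) of the 5 members with the largest differences and of their paralogs in 3 Input (grey) and 3 Positive (green) libraries, with marks for the animals and bars for the mean and SD. Rab32, Rab20, Rab39, Rab27a, Rab7 and Rab7b are higher in every Positive library, Rab38 and Rab39b overlap, and Rab27b is lower in every Positive library.

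Among the Rabs of regulated secretion, the paralogs Rab27a and Rab27b differed in opposite directions. Rab27a (chromosome 9, 73044854 to 73097629, plus strand) docks lysosome-related organelles and secretory granules at the plasma membrane. It had 143, 171 and 196 scaled reads in Input and 412, 428 and 409.8 in Positive. The Positive libraries lay close together and far above Input, with a log2 fold change of 1.29 ± 0.14 (adjusted p = 6.84e-06). Rab27b (chromosome 18, 69979131 to 70141605, minus strand), the paralog that serves exosome and granule release in many secretory cells, had 529.5, 537 and 546 in Input and 320.1, 382 and 447 in Positive. It was lower in every animal, at -0.49 ± 0.12 (adjusted p = 0.00597). Per kilobase Rab27a made up 46.4% ± 3.56 of the pair in Input and 75.1% ± 3.22 in Positive.

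Rab3a (chromosome 8, 70754679 to 70758677, plus strand), the main Rab of synaptic vesicles, had the highest level per kilobase in both fractions, 3379 ± 107 in Input and 3152 ± 321 in Positive. Its scaled reads were 7699, 7614 and 7249.6 in Input and 6762, 6462 and 7823 in Positive. Animals 201 and 207 were lower and animal 208 higher, and the log2 fold change of -0.10 ± 0.09 did not pass (adjusted p = 0.374), although without the Positive library of animal 208 it was -0.185 and passed (adjusted p = 0.0388). Rab3c and Rab3d, paralogs with a like role, had -0.01 and -0.13 and did not pass. Rab3b was lower at -0.25 ± 0.10 (adjusted p = 0.0461), a call lost in DESeq2 (adjusted p = 0.0602) and without any single library except Positive 208 (adjusted p from 0.0603 to 0.18). Rab26, a Rab of secretory granules, was lower at -0.37 ± 0.09 (adjusted p = 0.00416), from 776 ± 14.2 to 602 ± 29.8 scaled reads. Its relative Rab37 had -0.59 ± 0.27 on 51.2 ± 14.2 reads in Input and did not pass (adjusted p = 0.093).

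Of the 7 early endosome Rabs, 4 were higher and 1 lower, where 23.9% and 22.0% of all genes were, and 2 of the 4, Rab5b and Rab31, lost their call in some fits. Rab20 (chromosome 8, 11453518 to 11478710, minus strand), which takes part in phagosome maturation, had 48.8, 20.6 and 35.5 scaled reads in Input and 111, 139 and 103 in Positive. The fractions were apart in every animal, although the step in animal 207, 2.70 on the log2 scale, was larger than the 1.17 and 1.52 in animals 201 and 208. The log2 fold change was 1.76 ± 0.28 (adjusted p = 0.000228). Animal 207 had the lowest Rab20 value in Input, 20.6 against 48.8 and 35.5, and the highest in Positive, 139 against 111 and 103. The sum of border macrophage markers in its Positive library was also the highest, 5565 against 3117 and 2539. The same held for the sum of microglial markers, 164081 against 137818 and 111341. The part of these in the steps of Rab20 and Rab32 was not tested.

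The Rab5 paralogs, which organise homotypic fusion of early endosomes, differed in degree. Rab5c was higher at 0.73 ± 0.09 (adjusted p = 3.36e-05), with 2311, 1839.7 and 1892 scaled reads in Input and 3391, 3343 and 3258 in Positive. Rab5b was higher by less, at 0.21 ± 0.08 (adjusted p = 0.0373), and Rab5a had 0.09 ± 0.09 and did not pass. Rab5c took 52.6% ± 3.44 of the level of the 3 genes per kilobase in Input and 62.1% ± 2.10 in Positive. The call for Rab5b was lost under total count scaling (adjusted p = 0.156), with genes of at least 100 scaled reads (0.0549) and without any single library except Positive 201 (0.0521 to 0.115).

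Rab31, which moves cargo between the trans-Golgi network and endosomes and has been studied in phagocytosis, was higher at 0.42 ± 0.12 (adjusted p = 0.0119), while its paralog Rab22a had -0.04 and did not pass. Rab31 rested most on animal 207, with a step of 0.80 against 0.23 and 0.18. Without the Positive library of animal 207 it was 0.25 on the log2 scale (adjusted p = 0.0559), and without the Input library of that animal the adjusted p was 0.0574. Rab21, a Rab of integrin uptake, was lower at -0.25 ± 0.08 (adjusted p = 0.0161), but not without Input 207, Input 208 or Positive 201 (adjusted p of 0.0684, 0.0735 and 0.0547).

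Among the 11 Rabs of recycling and traffic to the plasma membrane, 4 were higher (36.4%, against 23.9% of all genes) and 2 lower (18.2%, against 22.0%), and 2 of the 4, Rab8a and Rab11a, lost their call in several fits. Rab8b, which sends Golgi and recycling cargo to the cell surface, had 914, 989 and 1052 scaled reads in Input and 1397, 1835 and 1592 in Positive, a log2 fold change of 0.71 ± 0.10 (adjusted p = 0.000112). Its paralog Rab8a was higher by 0.27 ± 0.10 (adjusted p = 0.0394). Rab35, a Rab of fast endocytic recycling, was higher by 0.31 ± 0.08 (adjusted p = 0.0072), and Rab11a, the classical Rab of recycling endosomes, by 0.25 ± 0.09 (adjusted p = 0.0423). The calls for Rab8a and Rab11a did not hold under total count scaling (adjusted p = 0.119 and 0.143), with genes of at least 100 scaled reads (0.0566 and 0.0625) or when single libraries were left out, nor did that of Rab8a in DESeq2 (0.0503). For Rab8a these were Input 201 and 207 and Positive 207 and 208 (0.0785 to 0.158), and for Rab11a Input 201 and 208 and Positive 207 and 208 (0.0593 to 0.163).

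On the other side stood Rab13 and Rab15. Rab13, known from the tight junctions of epithelia and endothelia, had 113, 103 and 83.6 scaled reads in Input and 66.7, 63.0 and 61.1 in Positive, the largest decrease of the family at -0.65 ± 0.20 (adjusted p = 0.0179). The decrease stood beside higher endothelial markers, and it lost its call without Input 201 or Input 207 (adjusted p of 0.0699 and 0.06). Rab15, a Rab of recycling endosomes first described in neural tissue, went from 4207 ± 169 to 2872 ± 290.2 scaled reads, at -0.55 ± 0.09 (adjusted p = 0.000201), and was lower in every animal. Rab10, Rab11b and Rab14 had 0.08, 0.10 and 0.17, and Rab4a and Rab4b, of rapid recycling, -0.23 and -0.09. None of these 5 passed. Rab4b shares 65.0% of its exon bases with Gm21983 on the same strand, so that its reads are uncertain.

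Of the 13 Rabs of the endoplasmic reticulum and Golgi, 2 were higher and 2 lower, so that 30.8% differed against 46.0% of all genes. The groups of Rabs were not tested against each other. Rab6b, the neuronal form of the Golgi Rab Rab6, was the second highest member per kilobase in both fractions, 2705 ± 88.3 in Input and 2852 ± 283 in Positive. Its scaled reads (chromosome 9, 103111787 to 103185276, plus strand) were 14052, 13164 and 13604 in Input and 12829, 14568 and 15653 in Positive. Rab6a (chromosome 7, 100607410 to 100641268, plus strand), the form found in all cells, had 7132, 7424 and 7655 in Input and 6807, 7015 and 8691 in Positive. For both the fractions overlapped and animal 208 was the highest in Positive, and neither log2 fold change, 0.08 ± 0.09 for Rab6b and 0.02 ± 0.10 for Rab6a, passed. In animal 208 the summed neuronal markers in Positive were also the highest, 202965 against 174132 and 169261 in animals 201 and 207.

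Of the Rabs of transport from the endoplasmic reticulum to the Golgi, Rab1a was higher at 0.32 ± 0.07 (adjusted p = 0.00392), while Rab1b had 0.17 ± 0.07 without overlap and did not pass (adjusted p = 0.069). Rab2a and Rab2b had -0.08 and 0.30 and did not pass. Rab43, a Golgi Rab, had 242, 195 and 229 scaled reads in Input and 312, 445 and 366 in Positive, at 0.76 ± 0.15 (adjusted p = 0.00133). It shares 75.4% of its exon bases with Gm45140 on the same strand, which was higher by 0.74, so that the reads of the pair cannot be told apart, and summed over both they were 524 to 599 in Input and 811 to 1110.1 in Positive. Rab36 and Rab33b were lower, at -0.54 ± 0.10 (adjusted p = 0.000975) and -0.52 ± 0.11 (adjusted p = 0.00221). Rab33b binds the autophagy protein Atg16l1. Rab36 was close to constant within fractions, 501, 494 and 493 scaled reads in Input and 331, 332 and 362 in Positive. Rab30, Rab33a, Rab34 and Rab18 did not pass, at -0.26, -0.29, -0.06 and 0.11. With the animal as a block, Rab30 passed at -0.26 (adjusted p = 0.0392), the only member whose call the block changed.

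Of the remaining members, Rab39 (chromosome 9, 53684110 to 53706232, minus strand), which has been studied in phagosomes and autophagy of macrophages, stood next to Rab32 in size. It had 14.2, 30.0 and 14.6 scaled reads in Input and 58.5, 103 and 75.5 in Positive. The lowest Positive library was above the highest Input library, and the steps of 1.97, 1.75 and 2.29 in animals 201, 207 and 208 were alike. The log2 fold change was 1.99 ± 0.33 (adjusted p = 0.000331). Rab39b (chromosome X, 75572046 to 75578231, minus strand), the paralog known for its role in neurons, had 495, 599 and 623 in Input and 459, 530.0 and 553 in Positive. Its fractions overlapped, and -0.16 ± 0.12 did not pass (adjusted p = 0.288). Per kilobase Rab39 made up 3.74% ± 1.48 of the pair in Input and 14.8% ± 2.94 in Positive, so that Rab39b was the larger member in both fractions.

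Of the Rabs tied to cilia and signalling, Rab28, known from photoreceptor cilia, was lower at -0.61 ± 0.11 (adjusted p = 0.000568), with 832, 844 and 878 scaled reads in Input and 470.0, 625 and 584 in Positive. Rab23, a regulator of Hedgehog signalling, had -0.25 and did not pass (adjusted p = 0.118). Rab40c, whose SOCS box joins ubiquitin ligases, was lower at -0.31 ± 0.09 (adjusted p = 0.0123), but not without Input 208 (adjusted p = 0.0556), and Rab40b had -0.06 and did not pass.

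The shift between paralogs was then compared as the log2 ratio of their reads within a library, which does not depend on scaling. In 28 pairs from 19 groups, holding 42 members, the ratios of the fractions did not overlap in 13. With 3 libraries against 3 the smallest p of an exact two-sided permutation test is 0.1, which is 0.215 after adjustment over the 28 pairs, so that no pair could pass and the shifts are a description. The ratio of Rab32 to Rab38 was higher in Positive by 3.03 ± 0.98 (SD over 3 animals), that of Rab39 to Rab39b by 2.15 ± 0.26 and that of Rab27a to Rab27b by 1.80 ± 0.45. Rab27a had fewer reads than Rab27b in all 3 Input libraries, at log2 ratios of -1.88, -1.65 and -1.47, and more in animals 201 and 207 in Positive, at 0.36, 0.16 and -0.13.

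Rab29 against Rab32 moved by -2.45 ± 0.36 and Rab30 against Rab43 by -1.01 ± 0.47, both without overlap, though the reads of Rab43 cannot be told apart from those of Gm45140. Other shifts were smaller. Rab5a against Rab5c moved by -0.65 ± 0.07 and Rab8a against Rab8b by -0.44 ± 0.07, both toward the second gene, and Rab22a against Rab31 moved by -0.45 ± 0.20. Of the neuronal pairs, Rab3a against Rab3b moved by 0.15 without overlap, and Rab3b against Rab3c at -0.25 and Rab6a against Rab6b at -0.06 overlapped. Rab7 against Rab7b, at -0.74, also overlapped.

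**Figure D3:**
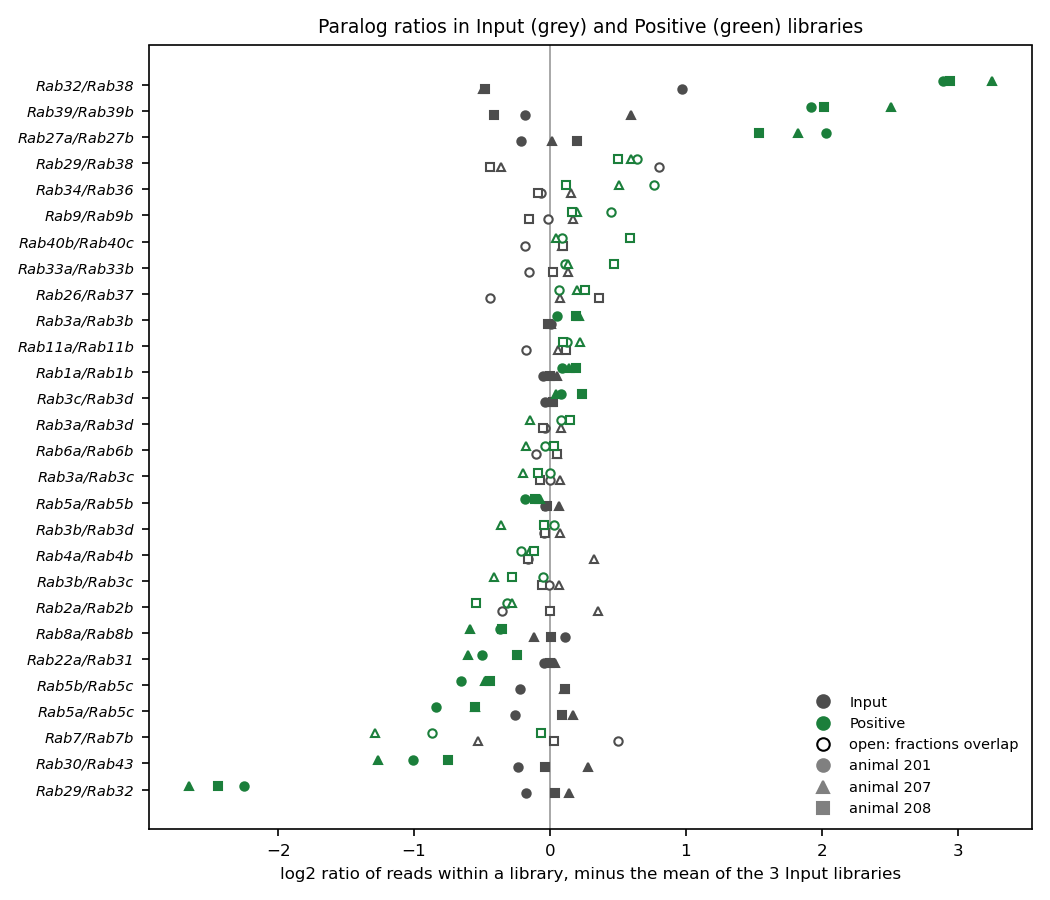
Log2 ratio of reads of 28 paralog pairs within each library, less the mean of the 3 Input libraries (x axis), with Input in grey, Positive in green, marks for the animals and open marks where fractions overlap. The ratios Rab32/Rab38, Rab39/Rab39b and Rab27a/Rab27b lie to the right in every Positive library, and Rab29/Rab32 lies to the left.

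The proteins that act on Rabs were taken from a list of 131 genes, of which 126 were tested. Of these 43 were higher (34.1%, against 23.9% of all genes) and 17 lower (13.5%, against 22.0%), with a median log2 fold change of 0.11. Among 36 GEFs 13 were higher and 3 lower, among 38 GAPs 14 and 4, and among 41 effectors 12 and 10. Leaving out 1 library moved the lower calls most, to 7 without Input 207, 7 without Input 208 and 10 without Positive 207. Apart from Mlph, Rab3il1, Dennd1c, Rin3, Micall1, Sytl2, Appl2 and Dennd6b, which the rule took, the genes named next were picked with their values in view.

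The largest differences of the whole pathway were in partners of the members above. Mlph (melanophilin), which links Rab27a to the motor myosin Va, had 40.7, 41.2 and 28.2 scaled reads in Input and 814, 1009 and 636 in Positive, a log2 fold change of 4.47 ± 0.20 (adjusted p = 2.17e-09). Myo5a, the motor itself, was abundant and higher by only 0.32. Unc13d, a Rab27a effector in granule priming, was higher by 2.42, while the synaptotagmin-like effectors Sytl2 and Sytl4 were lower at -0.45 and -0.93. Sytl4 had only 36.0 ± 8.99 reads in Input and lost its call in DESeq2 (adjusted p = 0.064) and without Input 207, Input 208 or Positive 208 (up to 0.118). The 4 Rab27 effectors named thus differed in direction.

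Exchange factors gave further large differences. Rab3il1, a GEF of Rab8, went from 159 ± 9.69 to 1638 ± 235 scaled reads, at 3.36 ± 0.12 (adjusted p = 3.45e-10). Dennd1c, of a family of Rab35 GEFs, was higher by 3.11, with 19.3, 15.9 and 28.2 scaled reads in Input. Dennd2c, of a family of Rab9 GEFs, was higher by 3.46 on 10.6 ± 0.555 reads in Input. Both passed the filter on reads only through the Positive libraries, where they were high. Rin3, Rinl and Rin2, GEFs of the Rab5 and Rab22 branch, were higher by 3.07, 3.00 and 1.38. Hps4 was higher by 1.07, while Hps1, with which it forms the GEF of Rab32 and Rab38, had -0.16 with overlap and did not pass. For Rab7 the GEF subunit Mon1b was higher by 0.26 (adjusted p = 0.0267, but 0.0956 under total count scaling and up to 0.112 without Input 207, Input 208 or Positive 208), and Mon1a and Ccz1 had -0.16 and 0.28 and did not pass. With the animal as a block Ccz1 passed (adjusted p = 0.0304).

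Other partners moved with the endosomal and Golgi members in part. Bicd2, a dynein adaptor that binds Rab6, was higher by 2.12, from 1563 ± 30.4 to 6814 ± 1348 scaled reads, where Rab6a and Rab6b did not pass. Lrrk1, a kinase of Rab7, was higher by 2.48 and Ppm1h, a phosphatase of Rab8a and Rab10, by 0.36, while Lrrk2 had -0.29 and did not pass (adjusted p = 0.0802), but did with the animal as a block (adjusted p = 0.0495). Gdi2, a GDP dissociation inhibitor found in most tissues, was higher by 0.79 ± 0.08. The GAPs Tbc1d4 and Tbc1d2b were higher by 1.00 and 0.96, and Tbc1d2 was lower at -0.76. At synapses the Rab3 effector Rph3a was higher by 0.74, and Rims1, of the active zone, was lower at -0.38.

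Besides Sytl2, the lowest values among partners averaging 100 or more scaled reads were those of Micall1, an effector of recycling Rabs, at -0.55 ± 0.09 (adjusted p = 0.00025), Appl2, a Rab5 effector, at -0.45 ± 0.13 (adjusted p = 0.0111) and Dennd6b, a GEF of Rab14, at -0.44 ± 0.14 (adjusted p = 0.02). Appl2 lost its call without Input 201 (adjusted p = 0.0592), and Dennd6b without Input 201 or Input 208 (adjusted p of 0.0647 and 0.0523). Without Positive 208 the value of Dennd6b was -0.26 and passed.

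**Figure D4:**
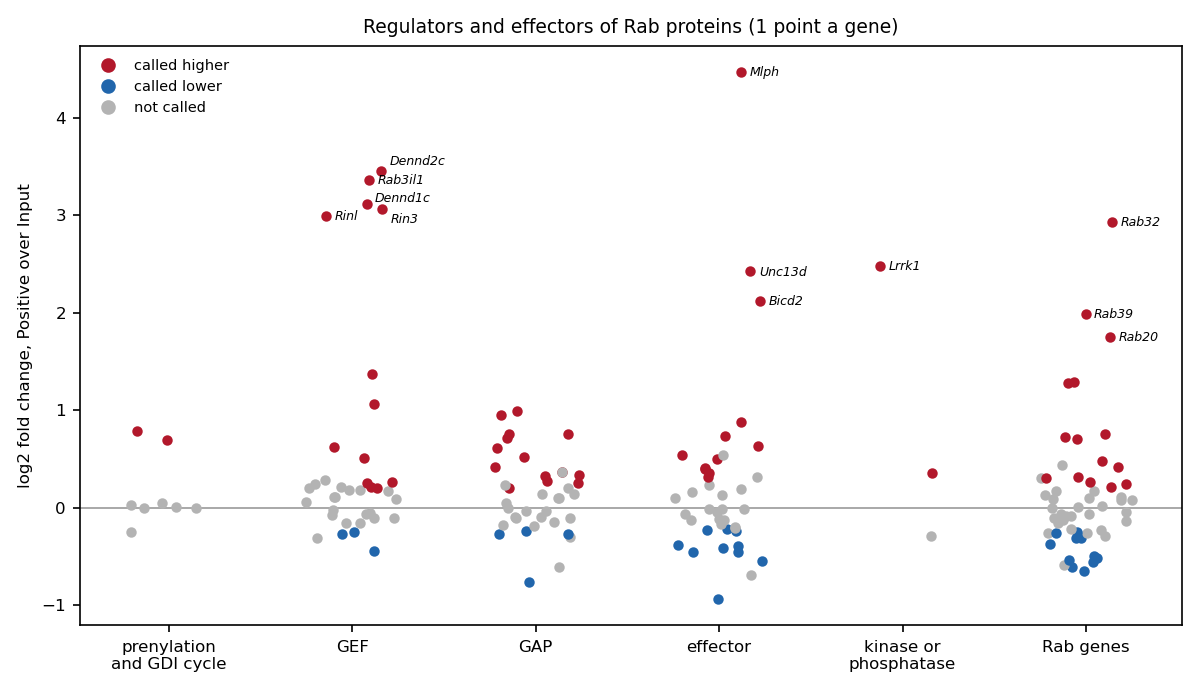
Log2 fold change (y axis, Positive over Input) of 126 regulators and effectors by class and of the 54 Rab genes at the right, 1 point a gene, red for higher, blue for lower and grey for genes that did not pass. Mlph at 4.47 and 5 GEFs between 3.00 and 3.46 lie above Rab32, the highest Rab gene, at 2.94. Of these GEFs, Dennd1c and Dennd2c passed the filter on reads only through the Positive libraries.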

How the data were processed

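RNA-seq of 3 Input and 3 Positive hippocampal TRAP libraries was analysed. The authors made strand-specific poly(A) libraries, aligned read pairs to mm10 in Strand NGS, and deposited expected counts per gene with genes kept at 20 or more reads in every library of a fraction. The authors also deposited log2 columns set to the Input median, which were not used. Expected counts were rounded. Genes with over 20 scaled reads in every library of a fraction were tested with edgeR 4.0.16 in R 4.3.3 (quasi-likelihood, RLE scaling, unpaired, Benjamini-Hochberg over 15343 genes). Scaled reads are reads over the size factor, and levels per kilobase divide by exon length (GENCODE M21). Same-numbered libraries come from the same animal, and their deviations from the fraction means correlated at 0.193, 0.0585 and 0.12. The animal as a block, TMM, total counts, no filter, at least 100 reads, DESeq2 1.42.0 and each library left out were the alternatives. The test was checked on simulated data in which far fewer genes changed than were called here.

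Values per library are given for members that passed with a fitted difference of at least 2-fold and the same direction in all animals. They are also given for the paralogs of these members and for the 3 highest per kilobase in each fraction. Of the regulators, the 4 largest and 4 smallest differences with a mean of at least 100 reads are named. Other values per library were added after they were seen. Of each cell type list the 2 genes with the most reads are named, with those whose call the block changed added after their values were known, and some genes are not reported here. The members and lists were chosen with earlier results of these data known. Reads carried no molecular identifiers, so their number limits counting error only.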

Additional observations from a re-analysis of the deposited data

How the results depend on the processing

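The number of Rab genes that differed was 26, against 26 with TMM, total count scaling and no filter, 20 of 49 tested at 100 or more scaled reads, 24 in DESeq2, 27 with the animal as a block and 19 to 27 with a library left out. In every fit that tested them 17 of the 26 were called, 9 lost the call in some fit and 6 others gained one, as given beside Rab3a and Rab30, and for Rab23 (adjusted p = 0.0387 without Positive 208, 0.045 under total count scaling), Rab4a (0.0431 and 0.0335), Rab2b (0.0376 without Input 201) and Rab33a (0.0467 without Input 201). Rab30 was also called under total count scaling (0.0343) and without Positive 208 (0.0103). With a library left out the lower Rab calls ranged from 7 to 15 (11 with all) and the lower calls of regulators and effectors from 7 to 18 (17 with all). The block changed no other call of a member.

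Signs changed only for genes that did not pass. Under total count scaling the log2 fold changes were -0.070 for Rab12, -0.058 for Rab6a and -0.0011 for Rab6b, and at 100 or more scaled reads -0.020 for Rab12 and -0.0089 for Rab6a. With a library left out they ranged from -0.030 to 0.041 for Rab12, -0.099 to 0.083 for Rab6a, -0.118 to 0.024 for Rab22a, -0.13 to 0.0019 for Rab2a, -0.21 to 0.056 for Rab34, -0.48 to 0.092 for Rab38, -0.085 to 0.061 for Rab3c, -0.23 to 0.017 for Rab40b, -0.23 to 0.017 for Rab4b and -0.40 to 0.053 for Hps1. Without 1 library Rgs5 (0.65 without Positive 208), Vtn (-0.60 without Positive 201), Aldoc (-0.34 without Positive 201), Lrrk2 (-0.43 without Positive 201) and Ccz1 (0.38 without Input 207, 0.30 without Positive 208) passed. The cause of these moves was not tested.

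The members with the fewest reads in Input, Rab7b, Rab38, Rab39, Rab20, Rab32 and Rab37, have the widest errors. Of Rab43 and Rab4b most windows of 42 bases (74.6% and 59.8%) occur in another gene, and of 22 members at least 1 window does. The exact permutation test of 3 libraries against 3 cannot give a p under 0.1.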

Other observations

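Genes named after Rab that the rule did not take were also measured. Rab10os, a noncoding transcript that runs opposite to Rab10, had 786, 952 and 892 scaled reads in Input and 351, 406 and 412 in Positive, at -1.17 ± 0.11 (edgeR adjusted p = 1.69e-06), where Rab10 itself had 0.08 and did not pass. Reads were counted by strand per the study's methods, so that the values of the pair are separate as far as the libraries kept strand. Rab26os, opposite to Rab26, had 49.4 ± 20.5 and 25.8 ± 15.3 scaled reads with overlap and did not pass (adjusted p = 0.0797), but did with the animal as a block (adjusted p = 0.0365). The Rab-like genes Rabl2, Rabl3 and Rabl6 and the ciliary Rab-like genes Ift22 and Ift27 had log2 fold changes from -0.34 (Rabl2) to -0.02 (Rabl6), and none of the 5 passed. With the animal as a block Rabl2 did (adjusted p = 0.0413).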
